A study of Mus musculus with 8 samples.

Results

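The nuclear genes of the mitochondrial respiratory chain were read in mouse embryonic stem (ES) cells given an esiRNA against Ctr9 and in ES cells given an esiRNA against luciferase, the transfection control. The set holds every gene whose single annotated symbol starts with Nduf, Uqcr or Atp5, or with Cox followed by a digit of the structural subunit families, together with Sdha, Sdhb, Sdhc, Sdhd, Cyc1 and Cycs. It comprises 92 of the 18193 genes on the array that have a probe set with 1 symbol. These 92 genes have 184 such probe sets, and each gene was read by the one with the highest mean over the arrays. The RefSeq gene table (GRCm38.p6) lists 98 protein-coding genes that match these symbols, and 6 of them had no probe set with 1 symbol here.

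Both groups are ES cells of the strain label Oct4-Gip at passage 25, transfected by lipofection and collected on day 4. There are 4 Affymetrix arrays with Ctr9 esiRNA and 4 with luciferase esiRNA. An esiRNA is made by cutting a long double-stranded RNA into many short silencing fragments. Ctr9 belongs to the Paf1 complex, which travels with elongating RNA polymerase II. The labels do not tell whether replicates were grown as separate cultures. The p-values therefore reflect only the spread among these arrays, and that spread may be technical.

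The respiratory chain passes electrons from NADH through complex I, and from succinate through complex II, to ubiquinone, then through complex III and the small carrier cytochrome c to complex IV, where oxygen is reduced. Complexes I, III and IV pump protons, and complex V, the ATP synthase, uses the gradient to make ATP. Most of the subunits are encoded in the nucleus and a smaller number in mitochondrial DNA. Naive mouse ES cells are known to respire as well as to run glycolysis, and primed cells are known to rely more on glycolysis.

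All values are log2 probe set signals as the authors deposited them, and a difference is Ctr9 esiRNA minus luciferase esiRNA. A gene is said to have risen or fallen when its limma p, adjusted over all 45037 probe sets, was under 0.05. Array medians lay between 5.736 and 5.748 with Ctr9 esiRNA and between 5.738 and 5.762 with luciferase esiRNA, and array correlations were 0.9975 to 0.9982 within groups and 0.9924 to 0.994 between them. The 5 probe sets of the target, Ctr9, did not all run one way. The 3 brightest differed by -0.09, -0.15 and -0.18, of which the last 2 passed (limma adjusted p = 0.209, 0.0398 and 0.0279), while of the 2 dim ones 1 rose by 0.29 (limma adjusted p = 0.0228) and the other differed by 0.27 (limma adjusted p = 0.125). The groups are called here by their labels. Of 5 ES cell markers (Pou5f1, Nanog, Sox2, Zfp42, Esrrb), 4 fell and none rose, and their mean level was 12.54 to 12.58 with Ctr9 esiRNA against 13.02 to 13.04 with luciferase esiRNA. Of 10 fibroblast markers 2 rose and none fell, beside rises in 15.8% of all genes. With 10 genes, the 2 rises are few more than that share. The mean level of the 10 was 5.13 to 5.18 with Ctr9 esiRNA against 4.96 to 5.08 with luciferase esiRNA. Of the 10, 4 lay above the array medians. The part of these marker differences in the results below was not tested. In bulk RNA, fewer cells of a type and less RNA per cell cannot be told apart.

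Respiratory chain genes were lower more often than higher with Ctr9 esiRNA, and the falls were small. Of the 92 genes, 35 fell (38.0%) and 7 rose (7.61%), together 45.7%. Among all 18193 genes 15.0% fell and 15.8% rose, together 30.8%. The chain's genes are read by bright probe sets, 87 of the 92 lying above the median level of all genes. Among the 1503 genes at least as bright as the lower quartile of the set (10.8), 20.4% fell and 20.6% rose, together 41.0%. The median difference of the 92 genes was -0.09, a change of -5.94%, against 0.0036 over all genes. Groups were apart in all 35 genes that fell and in 6 of the 7 that rose, and over the whole set the Ctr9 esiRNA values lay below in 44 genes and above in 10. Over all genes these shares were 17.8% below and 18.8% above, and over the bright genes 29.3% and 30.7%. At a threshold of 0.01, 24 of the 92 fell and 4 rose, beside 9.66% and 10.5% of all genes. A change of 1.5-fold or more was found for 1 member, Cox7a1. Without luciferase arrays 3 and 4, the count of falls was 21, and the count of rises was 4 without luciferase array 1 or 2 or without Ctr9 esiRNA array 2 or 3.

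**Figure D1:**
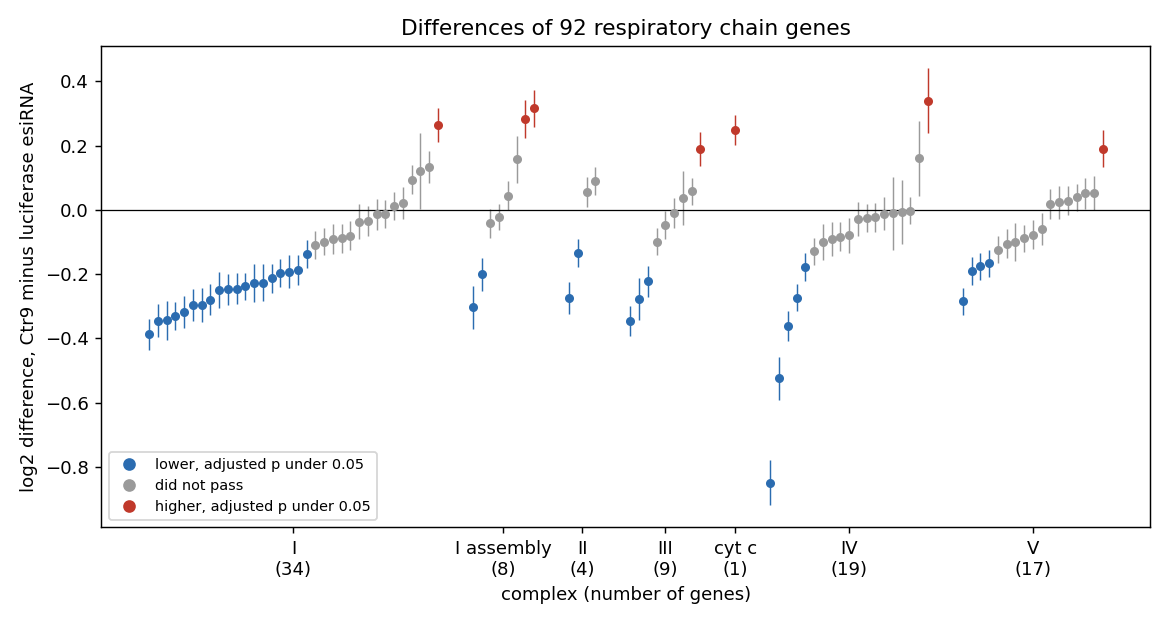
Log2 difference (Ctr9 minus luciferase esiRNA, y axis) of each of the 92 genes, grouped by complex along the x axis and ordered by size within each; whiskers are limma standard errors. In complex I, 19 of 34 subunit genes lie below 0 and passed (blue) and 1 rose (red); the lowest point, at -0.85, is Cox7a1 of complex IV.

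Nuclear respiratory chain genes are known to be served by the transcription factors NRF1, GABP (also called NRF2) and YY1, so the promoters of the members were searched on both strands for 1 spelling of each site, GCGCATGC for NRF1, CCGGAAG for GABP and AAGATGGC for YY1. No spelling contains another. The RefSeq promoter table (GRCm38.p6) holds 80 windows of 300 bases for 75 of the 92 genes. The NRF1 spelling stood in 12 of them (15.0%), the GABP spelling in 19 (23.8%) and the YY1 spelling in 10 (12.5%), against 2.71%, 8.86% and 2.75% of all 32851 windows. Among the 32 windows of genes that fell, the shares were 15.6%, 15.6% and 12.5%, and among the 48 windows of the other members 14.6%, 29.2% and 12.5%. The NRF1 spelling stood on both strands, shifted by 2 bases, in 6 windows of members (7.5%) and in 0.971% of all windows. A match is a description of the letters and not a bound site. In the 18 windows of complex I subunits that fell, 1 held the NRF1 spelling (Ndufa6), 1 held that of GABP (Ndufs3), and 4 held that of YY1 (Ndufa3, Ndufb8, Ndufc1 and Ndufs4).

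Promoter windows of 4 genes that fell are printed 5′ to 3′ on the strand of the gene, with matches in capitals, to show 1 window without a match and 1 for each spelling. Ndufv1 lies on the minus strand at chr19:4012706-4013005 and Ndufa3 on the plus strand at chr7:3617123-3617422, with the YY1 spelling close to the start. Uqcrc1 lies on the plus strand at chr9:108936398-108936697 with the NRF1 spelling on both strands, and Cox8a on the minus strand at chr19:7217567-7217866 with the GABP spelling at 2 places, on the opposite strand.
Ndufv1: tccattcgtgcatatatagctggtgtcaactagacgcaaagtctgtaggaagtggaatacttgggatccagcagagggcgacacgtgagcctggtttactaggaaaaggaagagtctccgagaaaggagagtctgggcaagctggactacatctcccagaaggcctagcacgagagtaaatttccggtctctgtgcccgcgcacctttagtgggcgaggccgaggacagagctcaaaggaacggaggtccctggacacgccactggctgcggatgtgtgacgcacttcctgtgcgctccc
Ndufa3: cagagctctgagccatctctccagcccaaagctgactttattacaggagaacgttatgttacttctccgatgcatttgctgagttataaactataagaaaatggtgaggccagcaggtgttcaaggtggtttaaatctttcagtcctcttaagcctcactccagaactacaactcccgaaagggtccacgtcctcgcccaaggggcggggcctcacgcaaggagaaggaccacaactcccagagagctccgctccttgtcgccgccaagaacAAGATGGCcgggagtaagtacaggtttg
Uqcrc1: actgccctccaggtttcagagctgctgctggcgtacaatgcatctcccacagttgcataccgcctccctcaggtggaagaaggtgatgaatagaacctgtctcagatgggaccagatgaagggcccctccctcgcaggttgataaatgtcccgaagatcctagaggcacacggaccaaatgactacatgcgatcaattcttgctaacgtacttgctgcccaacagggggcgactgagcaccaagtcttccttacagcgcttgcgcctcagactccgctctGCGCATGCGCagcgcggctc
Cox8a: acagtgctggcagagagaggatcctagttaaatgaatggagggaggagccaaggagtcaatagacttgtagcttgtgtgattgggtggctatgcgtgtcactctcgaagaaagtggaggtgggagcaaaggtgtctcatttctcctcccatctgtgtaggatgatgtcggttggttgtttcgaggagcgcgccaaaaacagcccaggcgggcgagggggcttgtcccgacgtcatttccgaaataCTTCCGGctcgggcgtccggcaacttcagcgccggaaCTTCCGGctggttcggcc

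Complex I had the largest share of genes that fell, a difference from the other complexes that was not tested. It takes electrons from NADH through an arm in the matrix and pumps protons through an arm in the membrane. Of its 34 subunit genes 19 fell (55.9%), 1 rose and 14 did not pass, at a median of -0.19 (-12.3%). Among the bright genes 20.4% fell and 20.6% rose. The mean level over the 34 complex I genes was 11.221, 11.278, 11.303 and 11.268 in the Ctr9 esiRNA arrays, against 11.427, 11.403, 11.409 and 11.405 in the luciferase arrays, so all 4 Ctr9 esiRNA arrays lay below all 4 luciferase arrays. Ctr9 esiRNA array 1 was the lowest of them.

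**Figure D2:**
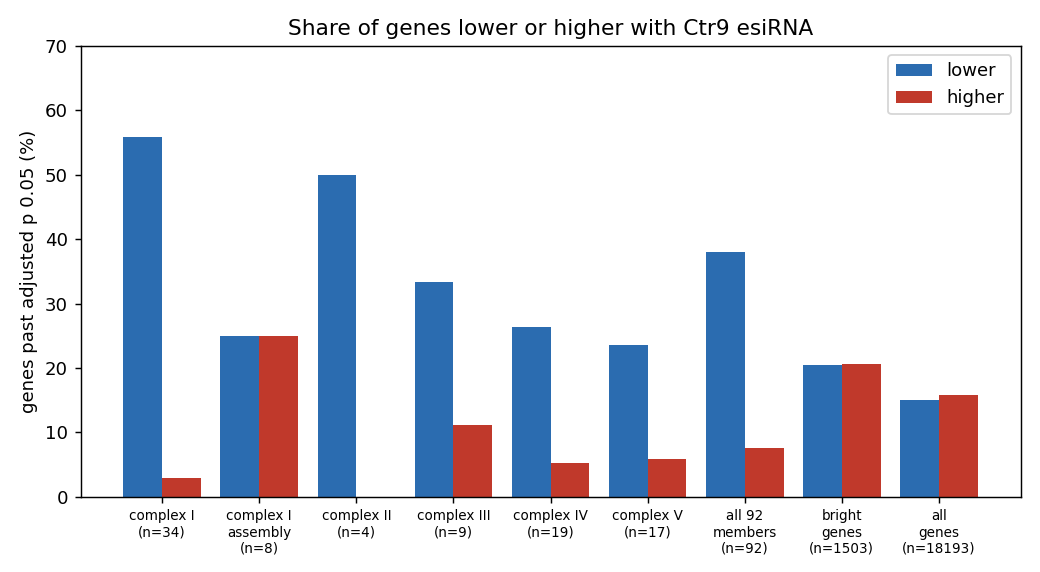
Percent of genes (y axis) that fell (blue) or rose (red) with Ctr9 esiRNA at an adjusted p under 0.05, by complex, for all 92 members, for 1503 genes of similar or higher brightness and for all genes. The blue bar of complex I stands at 55.9%, and the 2 bars of all genes at 15.0% and 15.8%.

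The core subunits of the matrix arm carry the flavin and the iron-sulphur clusters of the electron path, and 4 of the 6 measured core genes fell. Ndufv1, whose protein binds FMN and accepts the electrons of NADH, read 11.49, 11.65, 11.60 and 11.58 with Ctr9 esiRNA, against 11.94, 11.97, 12.01 and 11.96 with luciferase esiRNA. It fell by 0.39 (SE 0.0486, -23.6%, limma adjusted p = 0.000247), the largest fall in complex I by brightest probe set, and its other 2 probe sets fell by 0.33 each. Ndufv2, the iron-sulphur subunit beside it, averaged 12.26 ± 0.095 with Ctr9 esiRNA and 12.50 ± 0.031 with luciferase esiRNA (SD, n = 4 each) and fell by 0.25. Ndufs1, which holds further clusters, fell by 0.24 and Ndufs3, next to the ubiquinone site, by 0.19. The genes of the 2 cluster proteins nearest ubiquinone did not pass by their brightest probe sets. Ndufs8 differed by -0.08 (limma adjusted p = 0.241). Its 5 dimmer probe sets differed by -0.07 to -0.15, of which 1 passed (limma adjusted p = 0.0467), and the gene passed with all its probe sets averaged (-0.11, limma adjusted p = 0.0461) and with a trended robust prior (limma adjusted p = 0.0491). Ndufs7 differed by -0.01 (95% interval of the difference from -0.12 to 0.10), and its other probe set by -0.16 (limma adjusted p = 0.059).

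Accessory subunits have no redox centre and stabilise the complex. In the matrix arm 4 of 9 accessory genes fell and none rose, with Ndufa6 at -0.34, Ndufa7 at -0.30, Ndufv3 at -0.28 and Ndufs4 at -0.23. Ndufs4 is the accessory gene of the NADH-oxidising module whose deletion in mice is used as a model of Leigh syndrome, and 1 of its 3 dimmer probe sets fell by 0.70. The 4 dimmer Ndufa7 probe sets fell by 0.32 to 0.37. Ndufab1, which also serves as the mitochondrial acyl carrier protein, differed by 0.01 (limma adjusted p = 0.881).

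In the membrane arm 11 of 19 accessory genes fell and 1 rose. Ndufb9 read 11.88, 12.05, 12.06 and 12.02 with Ctr9 esiRNA, against 12.34, 12.32, 12.34 and 12.39 with luciferase esiRNA, a fall of 0.35 (SE 0.0515, -21.3%, limma adjusted p = 0.000745). Ndufb11, an X-linked subunit gene, read 11.69, 11.75, 11.79 and 11.78 with Ctr9 esiRNA, against 12.11, 12.10, 12.07 and 12.05 with luciferase esiRNA, a fall of 0.33 (SE 0.0446, limma adjusted p = 0.000392). The groups were apart in both genes by more than the spread within either. The exception was Ndufb1, at 7.59, 7.67, 7.49 and 7.54 with Ctr9 esiRNA against 7.38, 7.28, 7.27 and 7.31 with luciferase esiRNA, which rose by 0.26 (SE 0.053, limma adjusted p = 0.00448). The other 7 membrane arm genes did not pass, and their differences ran from -0.11 for Ndufb3 to 0.13 for Ndufc2. One of the 7, Ndufb4, was read at 4.17 on average, below the array medians, so its difference says nothing about that gene. In complex I, 11 of the genes that fell have further probe sets, 21 in all, of which 15 fell and none rose. These probe sets belong to genes already selected for a fall, so the share of all genes is no background for them.

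Of the 8 complex I assembly factors of the set, which help build the enzyme without staying in it, 2 fell (25.0%) and 2 rose (25.0%). Beside them stand 15.0% and 15.8% of all genes, and 20.4% and 20.6% of the bright genes. The 8 factors averaged 8.12 to 10.57, below the cut of 10.8 for bright genes. The bright genes are therefore not matched to them in level. The median of the 8 was 0.01, and -0.0369 with all probe sets of a gene averaged. Of 9 further complex I assembly factors outside the set 3 fell, none rose and 8 had a difference below 0, at a median of -0.11. Ndufaf3 read 8.78, 8.96, 9.08 and 8.99 with Ctr9 esiRNA, against 9.31, 9.17, 9.30 and 9.24 with luciferase esiRNA, and fell by 0.30 (SE 0.0676). Ndufaf5 read 7.91, 8.05, 8.11 and 7.99 with Ctr9 esiRNA, against 8.23, 8.19, 8.20 and 8.24 with luciferase esiRNA, and fell by 0.20 (SE 0.052). Ndufaf3 acts early in assembly and Ndufaf5 hydroxylates a core subunit. Ndufaf6 read 9.41, 9.61, 9.60 and 9.64 with Ctr9 esiRNA, against 9.25, 9.28, 9.25 and 9.35 with luciferase esiRNA, and rose by 0.28 (SE 0.0596). Ndufaf7, a mitochondrial methyltransferase gene, read 8.61, 8.73, 8.62 and 8.70 with Ctr9 esiRNA, against 8.30, 8.45, 8.25 and 8.40 with luciferase esiRNA, and rose by 0.32 (SE 0.0578, limma adjusted p = 0.0026). Groups did not overlap in any of these 4 genes, and over all genes they were apart with Ctr9 esiRNA below in 17.8% and above in 18.8%. The difference between assembly factors and subunits was not tested.

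Complex II, or succinate dehydrogenase, also belongs to the TCA cycle. Its 2 catalytic subunits fell and its 2 membrane anchors did not pass, beside falls in 20.4% of the bright genes. Sdhb, the iron-sulphur subunit, read 11.74, 11.87, 11.90 and 11.90 with Ctr9 esiRNA, against 12.15, 12.10, 12.13 and 12.12 with luciferase esiRNA, a fall of 0.27 (SE 0.0497, limma adjusted p = 0.00251). Sdha, the flavoprotein, read 11.58, 11.64, 11.65 and 11.59 with Ctr9 esiRNA, against 11.72, 11.76, 11.75 and 11.76 with luciferase esiRNA, a fall of 0.13 (SE 0.0422, limma adjusted p = 0.0417). The Sdha values were apart by little, and without any 1 of the 8 arrays the call was lost (limma adjusted p = 0.0588 to 0.103), whereas its next brightest probe set fell by 0.37 (limma adjusted p = 0.000184) and a dim pair did not pass. The anchors Sdhc and Sdhd averaged 10.89 ± 0.017 and 10.84 ± 0.023 with Ctr9 esiRNA, against 10.84 ± 0.066 and 10.75 ± 0.040 with luciferase esiRNA (SD, n = 4 each). Their differences were 0.06 and 0.09 (limma adjusted p = 0.455 and 0.166), and the dimmer Sdhd probe set rose by 0.23 (limma adjusted p = 0.0065).

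Complex III passes electrons from ubiquinol to cytochrome c, and 3 of its 9 genes fell (33.3%) and 1 rose (11.1%). Of the bright genes 20.4% fell and 20.6% rose, so with 9 genes the falls are few more than that share. Uqcrc1, a core protein, read 12.18, 12.25, 12.24 and 12.25 with Ctr9 esiRNA, against 12.55, 12.52, 12.62 and 12.62 with luciferase esiRNA, a fall of 0.35 (SE 0.0462, -21.3%, limma adjusted p = 0.000369). The small subunit gene Uqcr10 read 11.70, 11.95, 11.90 and 11.94 with Ctr9 esiRNA, against 12.11, 12.08, 12.20 and 12.21 with luciferase esiRNA, a fall of 0.28 (SE 0.0652). Another small subunit gene, Uqcrq, read 11.76, 11.86, 11.88 and 11.89 with Ctr9 esiRNA, against 12.08, 12.01, 12.08 and 12.11 with luciferase esiRNA, a fall of 0.22 (SE 0.049). All 3 genes had the lowest Ctr9 esiRNA value in array 1. Uqcrh, the hinge protein gene, went the other way, with 12.34, 12.44, 12.51 and 12.44 with Ctr9 esiRNA, against 12.18, 12.21, 12.27 and 12.31 with luciferase esiRNA, and rose by 0.19 (SE 0.0537, limma adjusted p = 0.027), as did its other probe set (0.16). The Uqcrh call was lost without luciferase array 1 or 2 or Ctr9 esiRNA array 2, 3 or 4 (limma adjusted p = 0.0605 to 0.0745).

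The redox subunits of complex III did not pass. Cyc1, which encodes cytochrome c1, averaged 12.60 ± 0.020 with Ctr9 esiRNA and 12.70 ± 0.029 with luciferase esiRNA (SD, n = 4 each), a difference of -0.10 (limma adjusted p = 0.119). Uqcrfs1, the Rieske protein gene, differed by 0.06 (limma adjusted p = 0.37).

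Cycs, which encodes the somatic cytochrome c that carries electrons to complex IV and also takes part in apoptosis, was higher. It read 13.09, 12.99, 13.06 and 13.04 with Ctr9 esiRNA, against 12.83, 12.78, 12.84 and 12.75 with luciferase esiRNA, and rose by 0.25 (SE 0.0456, 18.8%, limma adjusted p = 0.00268). The 3 other Cycs probe sets did not pass (0.13, 0.07 and -0.16), and with the mean of all 4 the call was lost (0.07, limma adjusted p = 0.223).

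**Figure D3:**
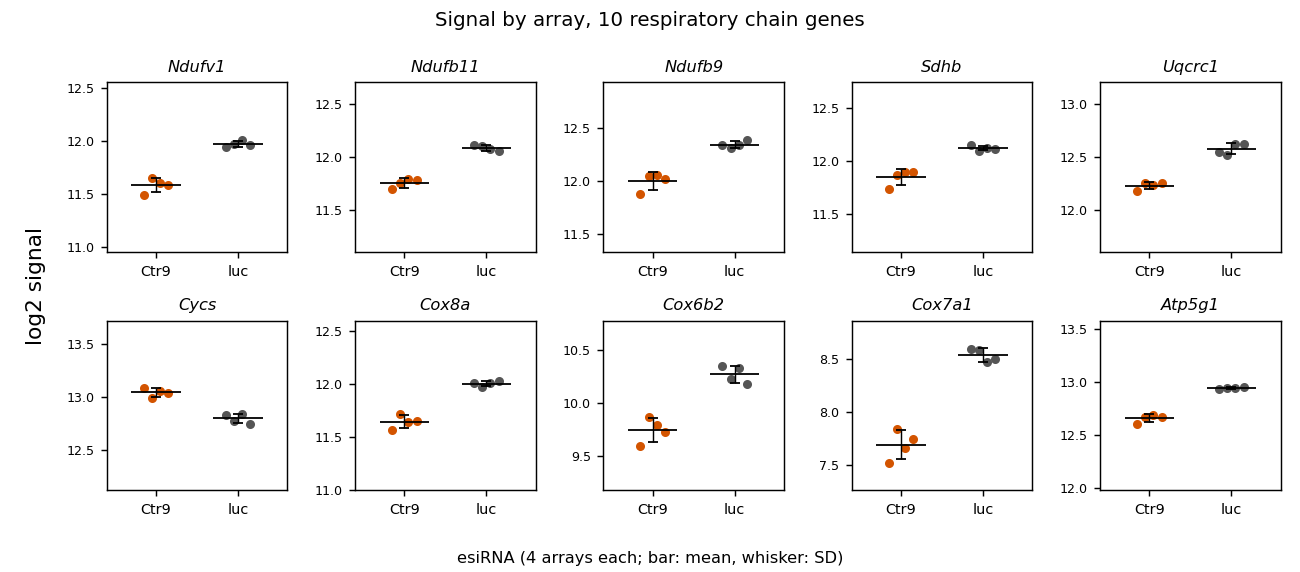
Log2 signal (y axis, each panel spanning 1.6 units) in the 4 Ctr9 esiRNA arrays (orange, left) and the 4 luciferase arrays (grey, right) for 10 genes; bars are means and whiskers SD. Cycs is the gene with its orange points above the grey ones, at 12.99 to 13.09 against 12.75 to 12.84.

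Complex IV, cytochrome c oxidase, has general subunits and forms restricted to certain tissues. Ndufa4 and its relative Ndufa4l2 are counted here, since the Ndufa4 protein is now assigned to this complex. Of its 19 genes 5 fell (26.3%) and 1 rose, beside falls in 20.4% of the bright genes. Of 11 genes of general subunits and of the supercomplex factor Cox7a2l, 3 fell and none rose. Cox8a, a small membrane subunit gene, read 11.57, 11.72, 11.65 and 11.66 with Ctr9 esiRNA, against 12.01, 11.98, 12.01 and 12.03 with luciferase esiRNA, a fall of 0.36 (SE 0.047, -22.1%, limma adjusted p = 0.000317). Cox6a1 averaged 13.78 ± 0.024 with Ctr9 esiRNA and 14.05 ± 0.012 with luciferase esiRNA and fell by 0.27. Cox4i1, a regulatory subunit gene, averaged 13.44 ± 0.044 with Ctr9 esiRNA and 13.61 ± 0.014 with luciferase esiRNA (SD, n = 4 each) and fell by 0.18 (SE 0.0432, limma adjusted p = 0.0127).

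The remaining general genes differed by -0.13 to -0.0024. Among them Cox7c was read only by dim probe sets, at 6.39 and 4.96 on average. Cox5b lay just outside the threshold at -0.13 with groups that did not overlap, and Cox5a, whose brightest probe set differed by -0.09 (limma adjusted p = 0.272), has an almost equally bright second probe set, which was lower by 0.26 and passed (limma adjusted p = 0.000942). Ndufa4 differed by -0.0024 (95% interval of the difference from -0.09 to 0.09).

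By brightest probe set, the largest changes were those of tissue-restricted forms of complex IV. Cox7a1, the form of heart and skeletal muscle, read 7.52, 7.84, 7.66 and 7.75 with Ctr9 esiRNA, against 8.60, 8.59, 8.47 and 8.50 with luciferase esiRNA. It fell by 0.85 (SE 0.0707, -44.5%, limma adjusted p = 1.69e-05). Cox6b2, known as the testis form, read 9.60, 9.87, 9.79 and 9.73 with Ctr9 esiRNA, against 10.35, 10.23, 10.33 and 10.18 with luciferase esiRNA, a fall of 0.52 (SE 0.0672, -30.4%, limma adjusted p = 0.000286). In both genes the gap between the groups was wider than the range within either. Cox7b2 read 4.35, 4.74, 4.63 and 4.37 with Ctr9 esiRNA, against 4.16, 4.19, 4.37 and 4.01 with luciferase esiRNA, and rose by 0.34 (SE 0.102, limma adjusted p = 0.0344). Its groups overlapped, its signal was below the array median, and its call was lost without Ctr9 esiRNA array 2 or 3 or luciferase array 1, 2 or 4 (limma adjusted p = 0.0675 to 0.0893). Of 6 muscle markers 2 rose (Acta1 and Myh6) and none fell, beside rises in 15.8% of all genes, and 3 of the 6 lay above the array medians. Their mean level was 5.71 to 5.92 with Ctr9 esiRNA against 5.74 to 5.86 with luciferase esiRNA.

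Forms of the same subunit were then set against each other within each array, in 10 pairs of related genes that were chosen with their values known. Cox7a1 fell relative to its general counterpart Cox7a2, which differed by -0.02, and the 2 changes were apart by -0.82 (SE 0.0768). Cox6b2 fell relative to Cox6b1 by -0.50 (SE 0.0698). The order was the other way for Cox6a1, the general form, whose change was 0.17 (SE 0.0528) below that of Cox6a2, and for Cox8a, whose change was 0.33 (SE 0.0708) below that of Cox8c. These 4 differences had an exact two-sided permutation p = 0.0286, the smallest that 4 arrays against 4 allow. After Benjamini-Hochberg adjustment over the 10 pairs it was 0.0409. Since the pairs were chosen with their values known, such p-values are a description and not independent support. Cox6a2 and Cox8c averaged 7.33 and 7.76 over the 8 arrays, against 13.91 for Cox6a1 and 11.83 for Cox8a. Differences of low signals are compressed, and the part of this in the latter 2 pairs was not tested. The pair of Ndufa4l2, a hypoxia-inducible gene, with Ndufa4 did not pass (0.16, SE 0.129, adjusted exact permutation p = 0.286). Cox4i2 and Cox8b averaged 4.99 and 5.66 over the 8 arrays, below the array medians, so their pairs with Cox4i1 and Cox8a, though among the 10 adjusted over, say nothing about these forms.

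Complex V consists of the F1 head, where ATP is made, a rotor ring of c subunits, a peripheral stalk and small membrane subunits. Of its 17 genes 4 fell (23.5%) and 1 rose, a share of falls near the 20.4% of the bright genes. That share was read by brightest probe sets and moved with the fit. With all probe sets of a gene averaged 7 of the 17 fell, and with a trended robust prior 8 fell. Without luciferase arrays 3 and 4, 1 fell. The median was -0.08, and -0.0418 without luciferase arrays 1 and 2. Atp5b, the catalytic beta subunit gene, read 13.90, 13.94, 13.92 and 13.92 with Ctr9 esiRNA, against 14.06, 14.09, 14.11 and 14.09 with luciferase esiRNA, a fall of 0.17 (SE 0.0406, limma adjusted p = 0.0127). The other 4 genes of the head and central stalk did not pass by their brightest probe sets. Of these 4, Atp5c1 and Atp5d fell with their probe sets averaged (-0.20 and -0.14, limma adjusted p = 0.0137 and 0.0178). In the peripheral stalk Atp5o, which encodes the OSCP subunit, read 12.56, 12.61, 12.59 and 12.56 with Ctr9 esiRNA, against 12.73, 12.74, 12.80 and 12.81 with luciferase esiRNA, a fall of 0.19 (SE 0.0433, limma adjusted p = 0.0091). Its neighbour Atp5h fell by 0.18. The stalk gene Atp5pb did not pass by its brightest probe set (-0.06, limma adjusted p = 0.441). Its other probe set was lower and passed (-0.17, limma adjusted p = 0.0206). Among the small membrane genes Atp5mpl read 11.79, 11.91, 11.80 and 11.86 with Ctr9 esiRNA, against 11.54, 11.59, 11.75 and 11.72 with luciferase esiRNA, and rose by 0.19 (SE 0.0587, limma adjusted p = 0.0378). The groups of Atp5mpl were apart by less than the spread of the luciferase arrays, and its call was lost without any 1 of luciferase arrays 1 and 2 or the 4 Ctr9 esiRNA arrays (limma adjusted p = 0.0521 to 0.0987).

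Mice have 3 genes for the same c subunit, which differ in the import sequence that is cut off. Atp5g1 read 12.60, 12.67, 12.69 and 12.67 with Ctr9 esiRNA, against 12.93, 12.94, 12.94 and 12.95 with luciferase esiRNA, and fell by 0.28 (SE 0.0425, -17.9%, limma adjusted p = 0.000745). Atp5g2 averaged 12.68 ± 0.11 with Ctr9 esiRNA and 12.79 ± 0.018 with luciferase esiRNA (SD, n = 4 each) and did not pass. Atp5g3 averaged 13.56 ± 0.024 with Ctr9 esiRNA and 13.52 ± 0.023 with luciferase esiRNA (SD, n = 4 each), which differed by 0.04 and did not pass either. Within arrays, the change of Atp5g1 was apart from that of Atp5g3 by -0.32 (SE 0.0135) and from that of Atp5g2 by -0.18 (SE 0.0389), and that of Atp5g2 from that of Atp5g3 by -0.14 (SE 0.0461). Each of these 3 pairs had an exact permutation p = 0.0286, adjusted to 0.0409 over the 10 pairs. These pairs too were chosen with their values known, and any 2 of the 3 differences fix the third. The p-values are therefore a description and not independent support.

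Genes that build or serve the chain without being subunits were read from lists of known members. Of the genes of the transcription factors whose sites were searched, Gabpa fell by 0.31 (SE 0.0438, -19.5%, limma adjusted p = 0.000493). Gabpb1, a gene of the other GABP subunit, differed by -0.10 (limma adjusted p = 0.202) and did not pass. Nrf1 differed by -0.07 (limma adjusted p = 0.425) and Yy1 by 0.13 (limma adjusted p = 0.0628). These factor genes belong to 24 genes of mitochondrial biogenesis and mitochondrial DNA expression, of which 5 fell (20.8%) and 1 rose (4.17%). Beside them stand falls in 15.0% and rises in 15.8% of all genes, and 20.4% and 20.6% of the bright genes. The mitochondrial DNA polymerase gene Polg rose by 0.48 (SE 0.0459, limma adjusted p = 3.93e-05), the coactivator gene Ppargc1b fell by 0.29 (SE 0.0818, limma adjusted p = 0.0259), and Tfam, the packaging factor of mitochondrial DNA, differed by 0.0006.

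The 3 complex I assembly factors outside the set that fell were Tmem186 by 0.26, Nubpl, an iron-sulphur cluster factor, by 0.18 and Ecsit by 0.14 (limma adjusted p = 0.0101, 0.029 and 0.047). Of 34 assembly factors of complexes II to V 8 fell (23.5%) and 7 rose (20.6%). In all genes these shares were 15.0% and 15.8%, and in the bright genes 20.4% and 20.6%. The copper chaperones of complex IV moved in opposite directions, with Sco1 down by 0.45 (SE 0.0453) and Sco2 up by 0.44 (SE 0.0576), and Fmc1, a complex V assembly factor, fell by 0.62 (SE 0.0702, -35.1%). All 3 passed with a limma adjusted p of 5.96e-05, 0.000327 and 0.000122. Of 16 TCA cycle and pyruvate dehydrogenase genes 4 fell (25.0%) and 1 rose (6.25%), beside the same shares of all genes and bright genes. The falls included the isocitrate dehydrogenase subunit gene Idh3g at -0.43 (SE 0.0458). They also included the pyruvate dehydrogenase genes Pdhb at -0.31 (SE 0.042) and Pdhx at -0.31 (SE 0.0555).

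Of 24 genes of protein import and cristae 5 fell (20.8%) and 1 rose (4.17%). The falls were led by the fusion GTPase gene Opa1 (-0.42, SE 0.0482) and the import motor gene Hspa9 (-0.23, SE 0.0424). The cristae gene Chchd3 followed (-0.26, SE 0.0538). Of 76 mitochondrial ribosomal protein genes 14 fell (18.4%) and 8 rose (10.5%), at a median of -0.03, with the 3 smallest p in genes that rose (Mrpl54 by 0.40, Mrpl12 by 0.29 and Mrpl34 by 0.30). Over all these lists, 39 of 183 genes fell (21.3%) and 18 rose (9.84%), beside 15.0% and 15.8% of all genes and 20.4% and 20.6% of the bright genes, at a median of -0.04. These counts moved with the fit, to 24 falls and 11 rises without luciferase arrays 1 and 2, to 60 and 34 among probe sets above the median signal, and to 65 and 36 with a trended robust prior.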

How the data were processed

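Column-purified, DNase-treated RNA of 8 ES cell samples was biotin-labelled in 1 cycle and hybridised to Affymetrix arrays, per the labels' protocols. The authors deposited log2 probe set signals, 1 column per array. GCOS 1.4 and RMA are named in the submitters' processing notes, and the sources used here give no settings. RMA normalises between arrays, which can hide a shift common to every gene, and it compresses differences of low signals. The precision is limited by the number of arrays.

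Of 45101 probe sets 64 controls were left out. Of the remaining 45037, 34945 have 1 symbol in the platform annotation, 932 several and 9160 are unnamed here. Updating symbols through Entrez identifiers (GRCm38.p6) changed no member. No member had an empty value. Groups were compared with limma 3.58.1 in R 4.3.3 (lmFit, eBayes) with p-values adjusted by Benjamini-Hochberg over every tested probe set; SE is limma's moderated standard error. The fit was tested on simulated data. Named are, per complex, the 3 members with the smallest adjusted p among those higher and among those lower, the isoform genes, complex II, the core complex I subunits and up to 3 genes per related list; other members were named where counts were small. The members, lists and alternatives were chosen with earlier results of these data known. Pairs of isoforms were tested by an exact permutation test added after their values were seen, and the NRF1 spelling was shortened after a first search with the longer, both-strand form. Alternatives were averaging all probe sets of a gene, a filter on dim probe sets, 3 scalings, array weights, a robust prior with a trend, leaving out arrays, blocking on replicate number, a stricter threshold, symbols as printed, and Ndufa4 counted with complex I. Figures were drawn with matplotlib 3.10.9.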

Additional observations from a re-analysis of the deposited data

Results flagged for a closer look

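Of 88 groups of 4 arrays of named genes, 4 held a value far from the other 3 (a gap above Dixon's 95% critical value), and chance gives about 1 in 20. Uqcrc1 read 12.18 in Ctr9 esiRNA array 1, against 12.24 to 12.25 in the other arrays of that group, and those others also lay below all luciferase values. Cox8c read 7.84 in Ctr9 esiRNA array 1, against 7.70 to 7.72 in the others. Cox4i1 read 13.63 in luciferase array 4, against 13.60 to 13.61 in the others. Sdha read 11.72 in luciferase array 1, against 11.75 to 11.76 in the others.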

How the results depend on the processing

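Of 42 members that passed, 21 kept their call and direction (19 lower, 12 of them in complex I, and 2 higher) under all 18 refits that tested them, and no called member reversed. With all probe sets of a gene averaged, 41 members fell and 7 rose, and the medians were -0.15 for complex I, -0.0369 for complex I assembly factors (0.01 with the brightest probe set) and -0.0775 for complex II. Above the median signal 60 related genes fell and 34 rose, and with a trended robust prior 65 of them fell and 36 rose, with 11 members higher. At a threshold of 0.01, 24 members fell and 4 rose, with 21 and 9 in the related lists and 1758 and 1902 over all genes. Without luciferase arrays 1 and 2, 28 members fell and 3 rose, 24 and 11 related genes did, and the medians were -0.15 for complex I, -0.0754 for complex III, -0.0277 for complex IV and -0.0418 for complex V. Without luciferase arrays 3 and 4, 21 members fell and the median of complex III was -0.12. Counted with Ndufa4 and Ndufa4l2, complex I had a median of -0.16. Leaving out 1 array at a time gave 32 to 33 members lower and 4 to 7 higher, and 17 to 18 complex I genes lower. With the replicate number as a block, 31 members fell and 6 rose, and Atp5b (limma adjusted p = 0.0508), Ndufb8 (0.0576), Atp5mpl (0.0661), Ndufs5 (0.101) and Sdha (0.104) lost their calls. Deviations of same-numbered arrays from their group means correlated at r from -0.0776 to 0.0625, and those of differently numbered arrays at -0.0843 to 0.0953. With so few arrays these values cannot tell whether same-numbered arrays shared a culture or a batch. With median centring, quantile or cyclic loess scaling, 33 to 36 members fell and 6 to 7 rose. The cause of these changes was not tested. Of the 35 lower members, 3 were read by probe sets of the x_at or s_at type, which can match several transcripts.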

Other observations

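A single probe set is annotated to a gene of mitochondrial DNA, ND5, a membrane arm subunit of complex I, and it was not part of the set. It read 12.55, 12.71, 12.68 and 12.63 with Ctr9 esiRNA, against 12.56, 12.54, 12.76 and 12.71 with luciferase esiRNA. The difference was -0.0034 (95% interval of the difference from -0.15 to 0.14; limma adjusted p = 0.979), and the groups overlapped.

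Of the 35 members that fell, 29 had their lowest Ctr9 esiRNA value in array 1. The same share was not computed over all genes that fell. Whether the pattern is particular to the members was therefore not tested. Without that array 33 members fell, and the median over the 92 genes was -0.07. Among the dimmer probe sets of members, the largest falls were those of Atp5g1 (-0.77, limma adjusted p = 1.1e-05) and Ndufs4 (-0.70, limma adjusted p = 1.4e-05). The first of these is read at 4.92 on average, below the array median. Of 52 members with several probe sets, none had 1 probe set that rose and another that fell. Among the 53 other probe sets of members whose brightest one did not pass, 10 fell and 3 rose. Of all genes, by brightest probe set, 15.0% fell and 15.8% rose. Whether the 53 probe sets depart from such shares was not tested.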
